A study of Mus musculus with 4 samples.

Results

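The solute carrier (SLC) genes encode membrane proteins that carry small molecules and ions across the plasma membrane or the membranes of organelles. The members described here are every gene whose symbol starts with Slc and a family number and that had a probe set of its own. Slc2a1, Slc2a3, Slc16a3, Slc7a11 and Slc39a14 were left out by the rule. This gave 257 of 12393 genes, each read from the probe set that was brightest on average (log2). Members were grouped by substrate class, which follows the family number with some single-gene exceptions. The rule goes by gene names alone, but it was drawn up with earlier results of these data known.

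RNA came from synovial fibroblast cultures of the knee joints of male DBA/1J mice aged 8 to 12 weeks, without arthritis. Synovial fibroblasts line the joint and take part in joint inflammation. The cells were passaged 3 to 4 times, kept in 1% serum and treated for 6 h in 4 ways. Vehicle was 1 group, and the other 3 groups all received IL-1β, an inflammatory cytokine, at 5 ng/ml. The second group had IL-1β alone. The third had indomethacin added at 1 µM. The last had both that dose of indomethacin and iloprost, also at 1 µM. Indomethacin blocks the cyclooxygenases and so the synthesis of prostanoids. Iloprost is a stable prostacyclin analogue that raises cAMP through the prostacyclin receptor. Below, "with indomethacin" means the dish with IL-1β and indomethacin, and "with iloprost" means the dish with IL-1β and both drugs. Each group has 1 array, so there is no replicate spread, no test and no p-value, and every difference describes these 4 dishes. How many mice or cultures lay behind a dish is not given in the sources used here.

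SLC families divide the work of cell metabolism between them. Families 1, 7 and 38 bring amino acids into the cell, family 16 moves lactate and pyruvate, and family 25 links the mitochondrial matrix with the cytosol. Family 35 supplies the Golgi and endoplasmic reticulum with nucleotide sugars for glycans and proteoglycans, and families 11, 30, 31, 39 and 40 handle iron, zinc, copper and manganese. Macrophages recycle iron and move metals out of the phagosome with such carriers.

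Signals are linear intensities. A signal of 37.6, the median over all probe sets and arrays, was taken as a floor below which signals have no order. Log2 ratios are given relative to the median gene, because the arrays differed in brightness as a whole. The median gene itself shifted by 0.23 (log2) between vehicle and IL-1β and by -0.15 between IL-1β and indomethacin. With iloprost it shifted by 0.01 from the indomethacin array and by -0.14 from the array of IL-1β alone. Adding this shift to a ratio gives its value as deposited. A ratio with 1 array at the floor is a bound. Medians and counts take a bound at its value, also where it leaves the direction unknown. The SD of the log2 ratio between probe sets of 1 gene, a measure of noise within these arrays, was 0.22, 0.20, 0.20 and 0.21 in the same order, and for IL-1β against vehicle it was 0.26 among dim probe sets and 0.19 among bright ones. This SD holds no spread between dishes.

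The cultures carried RNA of fibroblast and of macrophage genes on every array. All 15 fibroblast markers on the array were above the floor on all 4 arrays, and so were 22 of 23 macrophage markers. The exception was Cd163, with signals from 0.3 to 6.4. None of 10 endothelial and 8 lymphocyte markers passed the floor on any array, against 1 of 9 chondrocyte and 2 of 7 adipocyte markers. The summed macrophage marker signals ranged from 37574 on the iloprost array to 47811 on the IL-1β array, with 41518 for vehicle and 40768 for indomethacin. Fibroblast marker sums were also highest with IL-1β, at 41375, against 37875 for vehicle, 37878 for indomethacin and 39027 for iloprost. Such sums are not corrected for the brightness of an array. Relative to the median gene, the macrophage markers had a median of -0.09 for IL-1β against vehicle, and the fibroblast markers -0.10. Adipocyte marker sums were 4028 for vehicle, 3271 for IL-1β, 4314 for indomethacin and 1548 for iloprost. Nearly all of that sum is Lpl, lipoprotein lipase, which macrophages and other cells also express, and the adipocyte-defining Adipoq, Lep and Cidec were below the floor on every array. In such mixed cultures, fewer cells of a type and less RNA per cell cannot be told apart.

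The promoters of 3 genes are shown because results below turn on these genes: Slc16a1 and Slc41a2, the only members that were at least 1.5-fold lower with indomethacin and at least 1.5-fold higher again with iloprost, and Slc20a1, the member with the highest IL-1β ratio. Each is the 250 bases before the RefSeq start of the gene in GRCm38.p6, written 5′ to 3′ on the strand of the gene. Slc16a1 lies on the plus strand at chr3:104638414-104638663, Slc41a2 on the minus strand at chr10:83337818-83338067 and Slc20a1 on the plus strand at chr2:129198523-129198772. Slc20a1 has 2 listed starts, and the first is shown. Capitals mark the core of the cAMP response element, TGACG or CGTCA on the other strand, and the E-box CACGTG, which reads the same on both strands.
Slc16a1: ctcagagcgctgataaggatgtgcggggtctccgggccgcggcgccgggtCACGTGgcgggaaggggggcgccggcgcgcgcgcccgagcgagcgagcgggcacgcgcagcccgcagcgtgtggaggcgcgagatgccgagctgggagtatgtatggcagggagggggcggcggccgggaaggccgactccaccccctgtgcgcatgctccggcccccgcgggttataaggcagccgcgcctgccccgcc
Slc41a2: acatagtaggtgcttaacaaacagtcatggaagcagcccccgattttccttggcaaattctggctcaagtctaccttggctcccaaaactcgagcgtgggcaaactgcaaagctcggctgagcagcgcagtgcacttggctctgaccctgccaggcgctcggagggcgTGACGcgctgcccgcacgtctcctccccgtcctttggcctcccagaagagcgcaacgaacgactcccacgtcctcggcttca
Slc20a1: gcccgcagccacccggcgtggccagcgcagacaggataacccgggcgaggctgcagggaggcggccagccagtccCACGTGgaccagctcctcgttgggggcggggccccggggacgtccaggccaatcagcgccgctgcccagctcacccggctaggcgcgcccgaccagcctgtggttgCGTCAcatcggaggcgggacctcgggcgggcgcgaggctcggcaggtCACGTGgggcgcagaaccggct
The Slc41a2 window holds 1 cAMP core, which begins 82 bases before the start. Slc16a1 has 1 E-box, which begins 200 bases before the start, and the letters of the cAMP core are not in its window. Slc20a1 has 1 cAMP core, 69 bases before the start, and 2 E-boxes. No marked motif overlaps another. Of 97 members above the floor with a promoter in the table, 32% have a cAMP core in at least 1 window and 20.6% an E-box, against 32.4% and 10.7% of 5846 genes above the floor and 19.8% and 6.86% of all 27025 genes. The full element TGACGTCA is in the promoters of 2 of the 97, or 2.06%, against 3.03% of genes above the floor. A match describes the letters and is not evidence of binding.

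Of the 257 members, 109 were above the floor on all 4 arrays, 12 on 1 to 3 arrays and 136 on none. This is 42.4% of the members on all 4 arrays, against 50.2% of all genes. Some classes were mostly above the floor: 25 of 33 mitochondrial carriers, 16 of 19 carriers of nucleotide sugars and acetyl-CoA, and 21 of 23 transporters of transition metals and heme were above it on at least 1 array. Of the organic cation and anion carriers typical of kidney and liver, 2 of 19 were above the floor. For carriers of osmolytes and neurotransmitters this was 2 of 11, for acid-base and chloride transporters 7 of 25, for amino acid transporters 15 of 35 and for sugar transporters 6 of 20. Slc7a1, an arginine transporter, and Slc5a3, an inositol transporter, were below the floor on every array, at 18.3 and 7.9 at most.

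**Figure D1:**
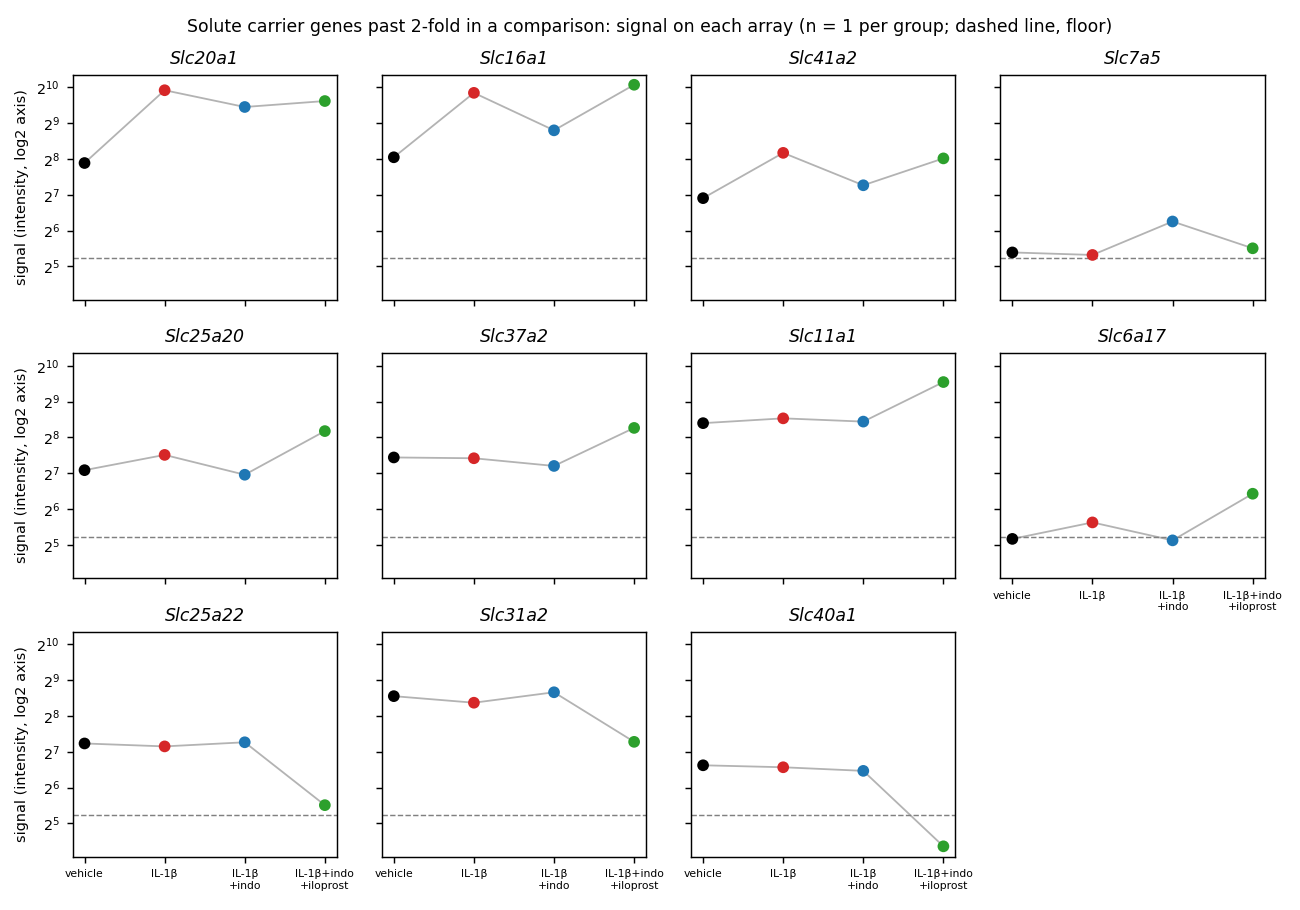
Signal on each of the 4 arrays (vertical axis, intensity on a log2 axis) of the 11 members that passed 2-fold in at least 1 comparison. Each point is 1 array and the dashed line is the floor of 37.6. Slc20a1, Slc16a1 and Slc41a2 stand higher with IL-1β than with vehicle, while Slc25a22, Slc31a2 and Slc40a1 are low only on the array with iloprost among the 4.

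IL-1β was compared with vehicle to ask which transporters respond to the cytokine. The phosphate importer gene Slc20a1, the lactate and pyruvate transporter gene Slc16a1 and the magnesium transporter gene Slc41a2 stood 2-fold or more above vehicle, and no member was 2-fold lower. They are 3 of 118 members with a ratio, or 2.54%, where 1.72% of all 6964 genes were at least 2-fold higher and 0.56% lower. At 1.5-fold, 9 members (7.63%) were higher and 0 lower, against 4.65% and 3.86% of all genes. The median over the members was 0.01, against -0.02 over all genes, and as deposited it was 0.23.

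Slc20a1 had a signal of 237 on the vehicle array, and of 970, 701 and 787 on those of IL-1β alone, indomethacin and iloprost. The vehicle array was far below the other 3, and the IL-1β ratio was 1.81 on the log2 scale. Its other probe set stayed at or below 6.1 on every array and gives no ratio.

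Slc16a1, whose product carries lactate and pyruvate together with protons, read 265 on the vehicle array, 922 on the IL-1β array, 446 on the indomethacin array and 1078 on the iloprost array. Its IL-1β ratio was 1.57. The arrays with IL-1β alone and with iloprost were high, and indomethacin lay between them and vehicle. Slc41a2 followed the same order of groups except at the top, with 120, 288, 154 and 259 and an IL-1β ratio of 1.04. Both genes have a single probe set.

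6 further members were between 1.5-fold and 2-fold higher with IL-1β. The arginine transporter gene Slc7a2 had signals of 390 with vehicle and 810.5, 808 and 750 on the arrays with IL-1β, a ratio of 0.83. Its other probe sets gave 0.71 and 1.38, so all 3 were higher, and no array with IL-1β came near vehicle. Slc38a2, an importer of glutamine and other small neutral amino acids, had a ratio of 0.64 with signals from 351 with vehicle to 641 with IL-1β. Slc25a37, which imports iron into mitochondria as mitoferrin, stood at 0.84, with 133 and 278. The pyrimidine nucleotide carrier gene Slc25a33 was at 0.76 and Slc25a25, a mitochondrial carrier of ATP-magnesium and phosphate, at 0.71, both from dim vehicle signals of 57.6 and 45.4. Slc9a3r1, an adaptor protein of sodium-proton exchangers and no transporter itself, was at 0.90, and its other probe sets at 0.94 and 0.89.

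The lowest member was the choline transporter-like gene Slc44a2 at -0.53, with signals of 906 with vehicle and 734 with IL-1β. Its other probe sets gave -0.50 and -0.31. The neutral amino acid transporter gene Slc1a4 and the lysosomal histidine and peptide transporter gene Slc15a4 were at -0.51 each. The folate transporter gene Slc19a1 was at -0.49 by its brightest probe set and at 0.47 by another, so its direction depends on the probe set.

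By class, calcium and magnesium transporters had the highest IL-1β median among classes with at least 4 ratios, 0.38 over 5 genes, with 4 above the median gene. With the floor at the 65th percentile 3 of these genes kept a ratio and the median was -0.01. Sugar transporters stood at -0.14 over 6 genes and acid-base and chloride transporters at -0.17 over 7, medians that turn to 0.09 and 0.05 as deposited. Mitochondrial carriers had a median of -0.04 over 23 genes, which is 0.18 as deposited, with 3 at least 1.5-fold higher. Amino acid transporters were at 0.07 over 15 genes, nucleotide sugar and acetyl-CoA carriers at 0.07 over 16, and transition metal transporters at 0.00 over 20. By the brightest probe sets, 0 of the last 2 classes were past 1.5-fold. Slc11a2, an iron importer gene, was at 0.15 by its brightest probe set, and at 0.69 and -0.33 by others. The 3 nucleoside carriers were all below the median gene, with Slc29a3 at -0.48, Slc43a3 at -0.36 and Slc29a1 at -0.22, which is 0.01 as deposited. The highest and lowest of other classes included the zinc transporter family gene Slc30a9 at 0.45 and Slc39a11 at -0.47, and the family 35 gene Slc35f6 at 0.40. Among mitochondrial carriers Slc25a44 was the lowest at -0.42. In the sugar class Slc2a10 was at least 0.22, from below the floor, and the glucose-6-phosphate transporter gene Slc37a4 at most -0.45. The taurine transporter gene Slc6a6 was at -0.13, above 0 as deposited, and Slc35b1, an ATP/ADP exchanger of the endoplasmic reticulum, at 0.12.

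**Figure D2:**
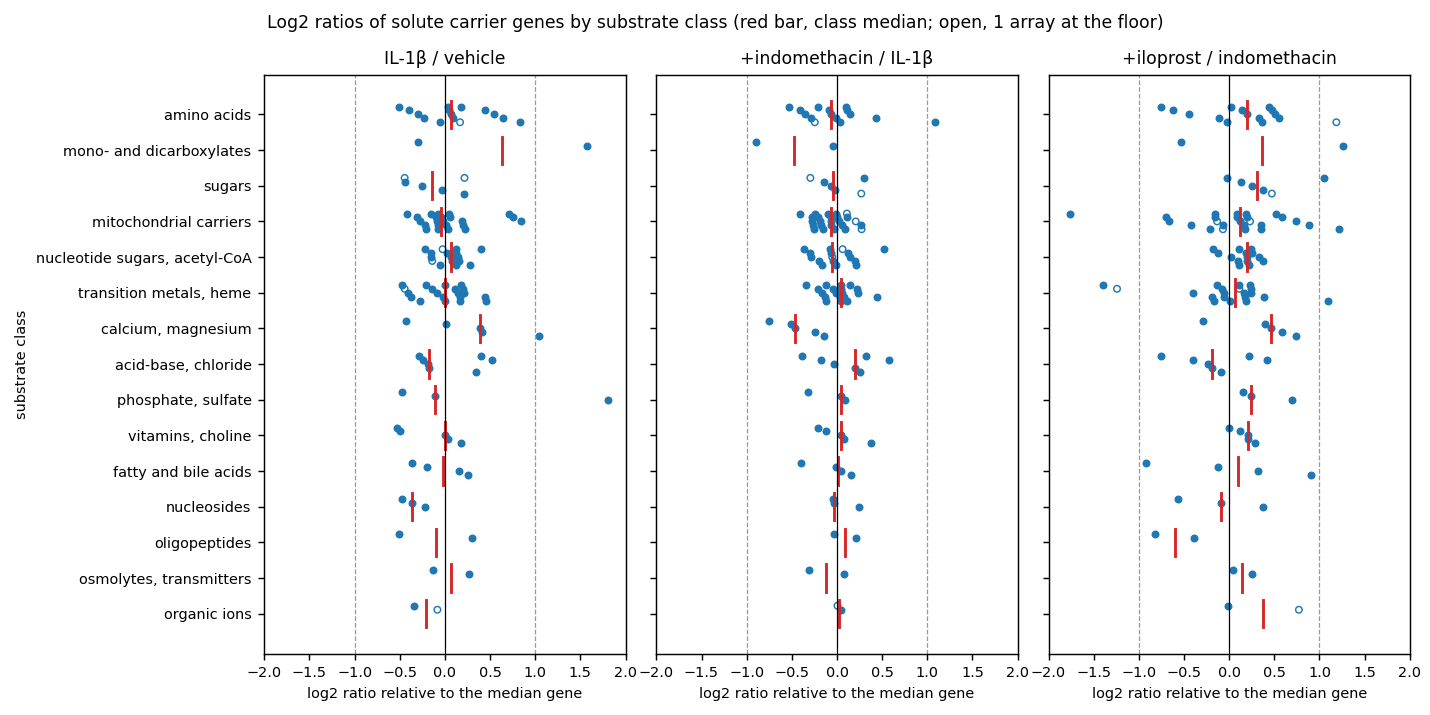
Log2 ratio relative to the median gene (horizontal axis) of each member by substrate class (vertical axis) in 3 comparisons, with the class median as a red bar and open points where 1 array is at the floor. Dashed lines mark 2-fold. Most points lie inside the dashed lines, and the iloprost panel is the widest, from -1.77 to 1.27. As deposited, points of the IL-1β panel lie 0.23 further right and those of the indomethacin panel 0.15 (log2) further left.

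Adding indomethacin to IL-1β asks which transporter levels depend on prostanoids made by the cells. This ratio shares the IL-1β array with the one above, so noise on that array alone makes the 2 go opposite ways. The amino acid transporter gene Slc7a5 was the 1 member of 119 past 2-fold. It was higher, where 0.245% of all 6932 genes were at least 2-fold higher and 0.664% lower, and 1.64% at least 1.5-fold higher. Slc16a1 and Slc41a2 were at least 1.5-fold lower, at -0.90 and -0.76, or 1.68% of members against 2.35% of all genes. The other 116 members stayed within 1.5-fold.

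Slc7a5 encodes the light chain of a large neutral amino acid exchanger. It read 41.9 on the vehicle array, 39.9 on the IL-1β array, 76.3 on the indomethacin array and 45.4 on the iloprost array, and its ratio was 1.08. Only indomethacin stood clear of the floor, and the gene has 1 probe set. It passed 2-fold in 3 of 6 alternative settings. As deposited the ratio was 0.94. Slc3a2, the heavy chain that pairs with it, was at -0.35 with signals of 967, 1544, 1093 and 1265 in the order vehicle, IL-1β, indomethacin, iloprost.

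All 5 calcium and magnesium transporters with a ratio were below the median gene with indomethacin, with a median of -0.46, or -0.24 over 3 genes with the floor at the 65th percentile. They were Slc41a2, the potassium-dependent sodium-calcium exchanger gene Slc24a3 (-0.50), Slc41a1 (-0.46), the mitochondrial sodium-calcium exchanger gene Slc8b1 (-0.24) and Slc41a3 (-0.15). Mitochondrial carriers had 17 of 25 below the median gene, with a median of -0.06, the highest being the aspartate-glutamate carrier gene Slc25a13 at 0.27 or more, and 0 past 1.5-fold. Slc25a13 went from 31.4, below the floor, to 41, and as deposited its bound was 0.12. Slc25a22, above the floor on both arrays, was at 0.26. The CMP-sialic acid transporter gene Slc35a1 was at -0.37 by its brightest probe set and at 0.07 by its other, so its direction depends on the probe set. Slc30a9 was at -0.34, and the sugar transporter genes Slc2a8 and Slc2a10 at 0.30 and at most -0.30. The glutamine transporter gene Slc1a5 was at -0.54 and Slc38a2 at -0.41, and the highest after Slc7a5 were the cation-chloride family member Slc12a9 at 0.57 and the family 35 member Slc35e4 at 0.52. Both were dim, from 41.4 to 55.5 and from 49.9 to 64.8, and as deposited at 0.42 and 0.38. The other probe set of Slc35e4 lay near the floor, with 37.6 and 38. The median over all members was -0.03 and as deposited -0.18, against 0.00 over all genes relative to the median gene.

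Adding iloprost to IL-1β and indomethacin asks what a prostacyclin analogue does where prostanoid synthesis is blocked. Of 118 members 97 stayed within 1.5-fold, against 109 of 118 with IL-1β. Slc16a1, the mitochondrial carnitine-acylcarnitine carrier gene Slc25a20, the vesicular amino acid transporter gene Slc6a17, the phagosomal metal transporter gene Slc11a1 and the sugar-phosphate exchanger family gene Slc37a2 were at least 2-fold higher. The mitochondrial glutamate carrier gene Slc25a22, the copper transporter family gene Slc31a2 and the iron exporter gene Slc40a1, which encodes ferroportin, were at least 2-fold lower. These are 5 and 3 of 118 members, 4.24% and 2.54%, where 1.98% of 6986 genes were higher and 3.19% lower. At 1.5-fold the shares were 9.32% and 8.47% of members, against 7.83% and 7.19% of all genes. The median of the members was 0.17 against 0.04, and 64.4% of members lay above the median gene, against 54.8% of all genes. Averaged over all probe sets of a gene, the members' median was 0.09.

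Slc16a1 stood at 1.27 against indomethacin, from 446 to 1078, and at 0.36 against IL-1β alone. Slc41a2 was at 0.74, and at -0.02 against IL-1β alone. They are the 2 of 117 members (1.71%) that were at least 1.5-fold lower with indomethacin and 1.5-fold higher with iloprost, and 1.75% of 6816 genes had that pattern. The indomethacin array is part of both ratios. Slc7a5 was the 1 member with the opposite order, with -0.76 for iloprost, where 0.88% of all genes had it.

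The fatty acid and sterol class had 2 of 4 genes above the median gene and a median of 0.10. Among mitochondrial carriers, Slc25a20, which brings acylcarnitines into mitochondria for oxidation, read 136 on the vehicle array, 183 on the IL-1β array, 124 on the indomethacin array and 290 on the iloprost array, a ratio of 1.21. The iloprost array was the highest of the 4, and another probe set of the gene, with 71.8 and 91.2, gave 0.34. Slc27a4, a fatty acid transport protein, was at 0.91, from 50.5 to 95.5. Slc22a4, an organic cation carrier, was below the floor with indomethacin and at 64.6 with iloprost, a bound of at least 0.77, while its carnitine-transporting neighbour in the family, Slc22a5, was at -0.01. Slc25a51, a mitochondrial NAD carrier, stood at 0.88 by its brightest probe set and at 0.19 by another. Slc25a24, a carrier of ATP-magnesium and phosphate, was at 0.74 and Slc25a17, the family member of peroxisomes, at 0.58.

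Other mitochondrial carriers were lower. Slc25a22 read 150, 142 and 154 on the vehicle, IL-1β and indomethacin arrays and 45.5 on the iloprost array, a ratio of -1.77. The first 3 arrays lay close together and iloprost was near the floor. The dicarboxylate carrier gene Slc25a10 was at -0.70, and its second probe set went from 76.0 to below the floor, a bound of at most -1.02. Slc25a33 was at -0.66, with 57.6 for vehicle, 114 for IL-1β, 92.4 for indomethacin and 58.8 for iloprost. The abundant ADP/ATP carrier genes Slc25a4 and Slc25a5 were at 0.17 and -0.21, and the phosphate carrier gene Slc25a3 at 0.35. As a class, 25 mitochondrial carriers had a median of 0.12, with 3 at least 1.5-fold higher and 3 lower.

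Metal transporters also went both ways. Slc11a1, which pumps iron and manganese out of the phagosome, read 338, 371 and 348 on the vehicle, IL-1β and indomethacin arrays and 749 on the iloprost array, a ratio of 1.10. Slc40a1 had 98.5, 94.8, 88.4 and 20.5, so it was below the floor with iloprost and its ratio was at most -1.24. Its second probe set, with 72.7, 74.8 and 70.4 on the first 3 arrays and below the floor on the fourth, was at most -0.91. Slc31a2 had 376, 331, 405 and 155, a ratio of -1.39, and its other probe set gave -1.11. In Slc11a1 and Slc40a1 the vehicle, IL-1β and indomethacin arrays lay close together and the iloprost array apart. Slc31a2 was lowest with iloprost, but its other arrays spread more. Its ratios were -0.41 for IL-1β and 0.44 for indomethacin, and -0.19 and 0.21 by its other probe set.

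The remaining 17 metal and heme transporters with a ratio were within 1.5-fold, and the class median was 0.06 over 20 genes. Among them were the iron importer gene Slc11a2 at -0.17, the copper importer gene Slc31a1 at 0.24, the zinc exporter gene Slc30a1 at -0.19 and the heme transporter gene Slc48a1 at 0.24. Other probe sets of Slc11a2 gave -0.58 and -0.05. The zinc importer gene Slc39a8 was above the floor only with vehicle, at 43.8. Of 11 measured partner genes of iron and zinc handling, 0 passed 2-fold with iloprost. Hmox1, which breaks down heme, was at -0.74, the transferrin receptor gene Tfrc at -0.32 and the metallothionein genes Mt1 and Mt2 at -0.25 and -0.09. With IL-1β 1 of 11 was at least 2-fold higher, the metalloreductase gene Steap4 at 1.73, where 1.72% of all genes were.

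Slc11a1, Slc40a1, Slc37a2 and the lysosomal peptide transporter genes Slc15a3 and Slc15a4 are known to be expressed in macrophages. Slc37a2 had signals of 174, 171, 148 and 308 and a ratio of 1.05. Slc15a3 had 1056 for vehicle, 1517 for IL-1β, 1341 for indomethacin and 1034 for iloprost, with -0.38 against indomethacin, and Slc15a4 was at -0.82. Over the 22 measured macrophage markers the iloprost median was -0.23, with 1 at least 2-fold lower, Fcgr1 at -1.46, and 0 higher. Of all genes, 3.19% were at least 2-fold lower and 1.98% higher. Adgre1 was at -0.77, Cybb at -0.75 and Aif1 at -0.74, and the highest markers were Fcgr3 at 0.79 and Cd14 at 0.62. Lyz2 and Csf1r were at -0.09 and -0.07. The adipocyte list had 2 measured genes, which went opposite ways with iloprost. Lpl was at -1.63, and the fatty acid binding protein gene Fabp4, with 101, 148, 120 and 164 on the 4 arrays, was at 0.44. The part of macrophage or adipocyte RNA in the ratios of these transporters was not tested.

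Amino acid transporters had a median of 0.20 with iloprost over 15 genes, with 10 above the median gene. Slc6a17 was at 86.1 with iloprost and at or below 49.4 on the other arrays, a bound of at least 1.19 against indomethacin. Slc6a9, a glycine transporter, was at 0.55 by its brightest probe set and at -0.03 by another, with 52.8 and 52 on the indomethacin and iloprost arrays. The glutamine transporter genes Slc38a1, Slc1a5 and Slc38a2 were at 0.51, 0.45 and 0.37, and Slc7a2 at -0.12. Lower were Slc7a8, a neutral amino acid exchanger light chain, at -0.62, and Slc7a7, its relative for cationic amino acids, at -0.44. Among 11 arginine and polyamine enzymes 2 were at least 2-fold higher with iloprost, arginase Arg1 by at least 4.79 and the polyamine enzyme gene Odc1 at 1.26. Another 2 were lower, Nos2, which makes nitric oxide from arginine, at -1.44 and the polyamine-acetylating Sat1 at -1.11. Of all genes, 1.98% were at least 2-fold higher and 3.19% lower. Of 14 genes of amino acid supply and the ATF4 response, 0 passed 2-fold with iloprost, and their median was -0.10. With IL-1β 1 of them was at least 2-fold lower, the stress gene Ddit3 at -1.30, where 0.56% of all genes were.

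The nucleotide sugar class had the narrowest range of iloprost ratios among the 4 classes with at least 14 of them. Its members ran from -0.18 for Slc35b3 to 0.38 for the UDP-galactose transporter gene Slc35a2, 12 of 14 above the median gene, with a median of 0.20. By the brightest probe set, none passed 1.5-fold with IL-1β, indomethacin or iloprost against indomethacin. By other probe sets Slc35a2 was at 0.66 and Slc35e4 at 0.61 with iloprost, and Slc35a3 at -0.59 with indomethacin. The enzymes that make their substrates, a list chosen with earlier results of these data known, differed more. Of 12 nucleotide sugar and sulfate donor enzymes, 3 stood 2-fold or more above vehicle with IL-1β, 3 of 11 were that much lower with indomethacin and 3 of 12 higher with iloprost. The shares over all genes were 1.72%, 0.664% and 1.98%. Uap1, Gfpt2 and Ugdh were the 3 each time, with iloprost ratios of 3.43, 1.37 and 1.36. The indomethacin ratio shares an array with each of the others. The transporter of UDP-N-acetylglucosamine, Slc35a3, was at 0.20, and that of the sulfate donor, Slc35b2, at 0.19.

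The sugar class had a median of 0.31 over 6 genes, with 5 above the median gene and Slc50a1 lowest at -0.03. In the vitamin class the thiamine transporter gene Slc19a2 was highest at 0.28. Of the ion carriers, the sulfate transporter gene Slc26a2 was at 0.70, from 64.2 to 105, and the sodium-potassium-chloride cotransporter gene Slc12a2 at 0.42. The sodium-proton antiporter gene Slc9b2 was at -0.75 and Slc10a6, a carrier of sulfated steroids, at -0.92, from 76.2 to 40.5. Calcium and magnesium transporters had a median of 0.47 over 5 genes, with 4 above the median gene. Of the measured accessory subunits of transporters, Bsg and Emb, which carry family 16 transporters to the membrane, were at 0.19 and 0.59, and Nptn at -0.03.

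**Figure D3:**
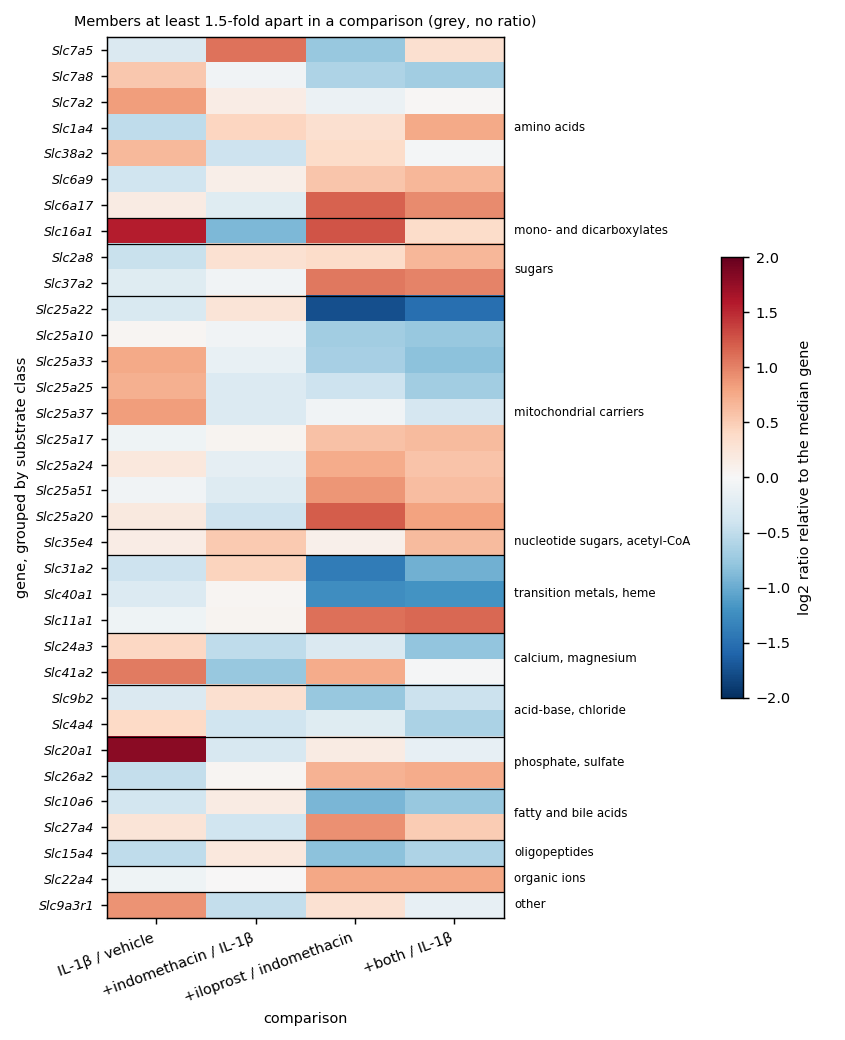
Log2 ratios relative to the median gene (colour, red higher and blue lower) of the 34 members at least 1.5-fold apart in at least 1 of the 4 comparisons (columns), grouped by substrate class (rows); values of Slc40a1, Slc6a17 and Slc22a4 with 1 array at the floor are drawn at their bound. The deepest blue is Slc25a22 with iloprost at -1.77, and the deepest red Slc20a1 with IL-1β at 1.81.

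IL-1β with both drugs was also set against IL-1β alone, which asks where iloprost leaves a transporter relative to the prostanoids the cells make themselves. Slc11a1 was at least 2-fold higher, at 1.15, and Slc25a22 and Slc40a1 were at least 2-fold lower, at -1.50 and at most -1.20. These are 1 and 2 of 118 members, 0.847% and 1.69%, against 0.95% and 2.37% of all 7050 genes. Slc37a2 was just inside 2-fold at 0.99 and Slc31a2 at -0.95. Slc25a20 was at 0.80, Slc26a2 at 0.74 and Slc1a4 at 0.76. Slc1a4 was dim, at 40 on the IL-1β array, its lowest, and 61.6 with iloprost. Slc24a3 was lower at -0.79, as were Slc25a25 at -0.70 and the bicarbonate cotransporter gene Slc4a4 at -0.63. These lower genes were also dim and were highest on the IL-1β array, at 83.3, 87 and 81.6, against 43.7, 48.7 and 48 with iloprost. Not all lower members were so. Slc25a10 was brighter and at -0.76, from 189 to 101, and Slc10a6 at -0.76 and Slc15a4 at -0.61 were highest with vehicle. At 1.5-fold 12 members (10.2%) were higher and 11 (9.32%) lower, where 5.11% and 5.91% of all genes were. Both ratios of iloprost use the same iloprost array, and the one against IL-1β alone shares the IL-1β array with the IL-1β and indomethacin ratios. The median over members was 0.05 and as deposited -0.09.

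Over all 4 comparisons 34 of the 121 members above the floor on any array passed 1.5-fold at least once, or 28.1%, against 22.5% of all 7147 genes above the floor on any array. The other 87 members never did. For members with another probe set above the floor, the ratios of the probe sets were compared. With iloprost against indomethacin, 56 other probe sets of 36 members differed from the brightest by a median of 0.15, and 4 differed by at least 1.5-fold, those of Slc25a20, Slc25a51, Slc12a7 and Slc23a2. With IL-1β against vehicle, 57 probe sets of 39 members differed by a median of 0.17, and 1 by at least 1.5-fold, that of Slc19a1. With indomethacin against IL-1β, 58 probe sets of 39 members differed by a median of 0.17 and 3 by at least 1.5-fold, those of Slc19a1, Slc35a3 and Slc44a1. Slc35a3 was at 0.20 by its brightest probe set there and at -0.59 by the other. With iloprost against IL-1β alone, 55 probe sets of 36 members differed by a median of 0.12, and 1 by at least 1.5-fold, that of Slc20a2. Slc16a1, Slc41a2, Slc25a22, Slc11a1, Slc37a2, Slc6a17 and Slc7a5 have 1 probe set and no such check.

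**Figure D4:**
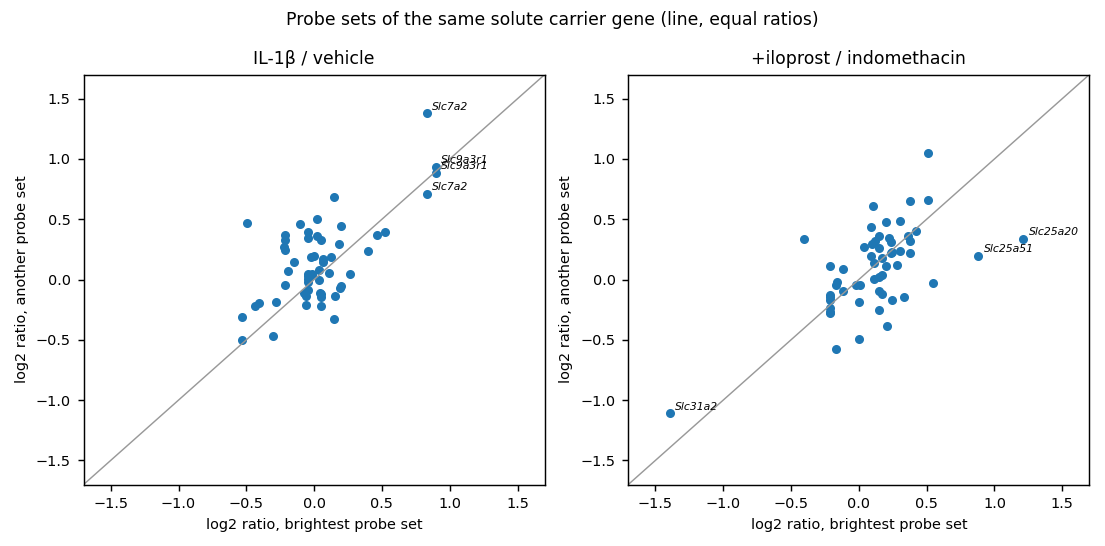
Log2 ratio of another probe set of a member (vertical axis) against that of its brightest probe set (horizontal axis), both above the floor on both arrays, for IL-1β against vehicle and for iloprost against indomethacin. Points on the line have equal ratios. The probe sets of Slc7a2 and Slc9a3r1 are high on both axes with IL-1β, those of Slc31a2 are low on both with iloprost, and Slc25a20 lies below the line at 1.21 and 0.34.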

How the data were processed

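The authors deposited 1 linear signal intensity per probe set for each of 4 one-colour Affymetrix arrays. Labelling followed the standard Affymetrix protocol, per the labels. How probe signals were summarised and scaled is not given in the sources used here. All 4 value columns were used. Probe sets were named by the platform annotation, which can be old. Of 22690 probe sets 20393 name 1 gene, 691 several and 1606 none in that table. The gene numbers of all 257 members matched the RefSeq table of GRCm38.p6, which changed 0 symbols. The 64 control probe sets were left out.

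Signals below 37.6 (50th percentile) were set to that floor and log2 was taken. Each gene was read from the probe set that was brightest on average over the 4 arrays (log2). Ratios are relative to the median of 6222 genes above the floor on all 4 arrays. Genes at the floor on both arrays have no ratio. Ratios were compared at 2-fold and 1.5-fold. The promoter motifs were searched as letters. The steps were tested on simulated data. The number of arrays limits the precision.

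The members, the substrate classes and the gene lists were chosen with earlier results of these data known, and Slc4a1ap, Slc9a3r1 and Slc9a3r2, which encode adaptor proteins, were kept apart from the transporter classes, Slc4a1ap after its values were seen. Slc2a6, on the fixed list of names, was not analysed here. Named genes are members past 2-fold (up to 15 per direction), the highest and lowest of classes with at least 4 ratios, members with opposite indomethacin and iloprost ratios at 1.5-fold, a short fixed list, and list members with the largest ratios. Members named beyond this rule, such as those between 1.5-fold and 2-fold, were chosen after their values were seen. Alternatives were the scale as deposited, quantile normalization, floors at the 35th and 65th percentiles, the mean over probe sets, and log2 of signal plus 16. Python 3.11.15, numpy 2.4.6, pandas 2.3.3 and matplotlib 3.10.9 were used.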

Additional observations from a re-analysis of the deposited data

How the results depend on the processing

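With 1 array per group the alternatives test only the processing, and 5 to 9 member ratios per comparison are bounds because 1 array is at the floor. As deposited, the IL-1β comparison had 6 members at least 2-fold higher and a median of 0.23, where 2.80% of all genes were higher and their median was 0.21, and the indomethacin comparison 0 higher and 1 lower. With the floor at the 35th percentile, 2 members were 2-fold lower with IL-1β, 2 higher with indomethacin and 2 higher with iloprost against IL-1β alone. That floor also gave 7 of 145 members lower with indomethacin and higher with iloprost, where 2.92% of all genes were, and 2 with the opposite order, where 1.64% of all genes were. With the floor at the 65th percentile, a signal of 87, 0 members were 2-fold higher with indomethacin, 1 was lower with iloprost against indomethacin, and 2 were higher and 0 lower against IL-1β alone. There 0 members had the order of Slc7a5, and Slc40a1, whose signals lie near that floor, had bounds of 0.0025 and 0.0499 in place of -1.24 and -1.20. With log2 of signal plus 16, 0 members were 2-fold higher with indomethacin. Averaging probe sets took Slc20a1 from 1.81 to 0.80 for IL-1β, since its other probe set is below the floor, and Slc25a20 from 1.21 to 0.77 for iloprost. With the floor at the 65th percentile Slc25a22 was at most -0.80 and -0.53. Slc11a1, Slc16a1 and Slc31a2 kept their 2-fold ratios in all 6 settings. With log2 of signal plus 16, Slc41a2 with IL-1β was at 0.96, and with iloprost against indomethacin Slc37a2 was at 0.98 and Slc6a17 at 0.997, all just under 2-fold. Slc6a17 had no ratio with the floor at the 65th percentile. Values under the alternatives were tallied only for members past 1.5-fold in a comparison, and only where a ratio remained. Of these, 279 moved by less than the SD between probe sets of a gene and 40 by more. Another 2, the Slc40a1 bounds above, changed sign, but they are upper bounds and do not show a reversal. A change of sign was looked for only in ratios past 2-fold. As deposited, all ratios of a comparison move by 1 shift, which passes the SD only for IL-1β against vehicle. Of class medians 201 moved by less and 15 by more. That SD is for single ratios and is larger than most class medians, so a move below it says little. Changes of sign were not looked for in class medians. No paired analysis was possible because each group has 1 array.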
